A study of Mus musculus with 12 samples.

Results

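The cells described here are mouse cardiac nonmyocytes grown in culture, and the readout is their polyadenylated RNA. They were chosen as the 3 polyadenylated RNA libraries labelled as heart fibroblasts, out of 12 samples in the series, and all 3 are described. The other samples hold small RNA of heart nonmyocytes or RNA of cardiomyocytes and are not used here. The donors were wild-type FVB/NJ mice, an inbred laboratory strain, labelled female and 12 weeks old. Their hearts were perfused on a Langendorff apparatus, which feeds the coronary vessels backwards through the aorta, digested with collagenase, and settled through a filter by gravity to part muscle cells from the rest. The nonmyocytes were then expanded in dishes with no further treatment, so that every library carries the effects of culture. Freshly isolated nonmyocytes are not analysed here. The submitters' labels differ on the number of passages: the protocol gives 2, the cell type label P1. Which hearts or dishes a library came from is not stated, so p-values below measure only how far these 3 libraries differ, and part of that may be technical.

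Cardiac fibroblasts are the main producers of the heart's connective tissue. They secrete collagens, fibronectin and other glycoproteins, together with the enzymes that cross-link and cut them. When they are wounded, stretched or placed on a stiff surface such as a culture dish, they assemble contractile bundles of smooth muscle actin and become myofibroblasts, a change driven by transforming growth factor beta and by the mechanical sensors SRF (with its MRTF partners) and YAP (with its TEAD partners). A culture of heart nonmyocytes can also hold endothelial cells, pericytes, smooth muscle cells, macrophages and remnants of cardiomyocytes, since all of these live in the tissue that was digested.

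Total counts were 10792544, 8126422 and 10243774 in libraries 1, 2 and 3, over 57683 annotated genes. A count of 0 in these libraries allows a level of up to 0.278, 0.369 and 0.293 CPM (counts per 1000000 counts of the library), with 3 counts as the limit and for counting error only. TPM (transcripts per 1000000) first divides counts by the length of the gene's exons and allows genes to be ranked against each other. Levels under 1 TPM rest on few counts. Values after ± are standard deviations over the 3 libraries (n = 3). Sets of 3 values are given in the order of libraries 1, 2 and 3. Libraries sequenced as a bulk culture cannot tell fewer cells of a type from less RNA per cell, which holds for every level below.

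Low values in this table are not proof of absence. Of 454 protein-coding genes with over 99% of their exon bases inside other annotated genes, 452 stood at 0 in every library, as did 129 of 232 genes with 90% to 99% shared and 195 of 1313 with 50% to 90%. Among genes with some but at most 10% shared 175 of 2687 stood at 0, and among those with no shared base 3515 of 10999. Some genes that every cell uses were also low. The glycolytic enzyme Gapdh stood at 8.42, 9.46 and 53.9 TPM, the prolyl isomerase Ppia at 1.61, 0.941 and 2.19 TPM and the actin-binding peptide Tmsb4x at 10.4, 9.63 and 11.2 TPM. These 3 genes have near-identical copies elsewhere in the genome, and whether such copies lower the counts was not tested. Genes at 0 in all 3 libraries are written as listed at 0, and genes with at least 50% shared exon bases are given with that share. The label of sex was checked too. Genes of the Y chromosome held counts in all 3 libraries, which goes against the label female: Eif2s3y had 367, 247 and 376 counts, Ddx3y 254, 260 and 299, Kdm5d 136, 135 and 206 and Uty 21, 25 and 16. None of the first 3 shares an exon base with another gene. Per length, Eif2s3y stood at 19.9, 17.8 and 23.1 TPM beside 10.4, 15.8 and 20.3 TPM for its X-linked partner Eif2s3x (61.2% of exon bases shared). The other Y-linked genes stood below their X-linked partners per length. The ratio was 0.371 ± 0.0528 for Ddx3y to Ddx3x, 0.142 ± 0.0251 for Kdm5d to Kdm5c and 0.399 ± 0.069 for Uty to Kdm6a. Xist, the RNA that coats the inactive X chromosome of female cells, is listed at 0 but shares 100% of its exon bases and so checks nothing. The source of the Y-linked counts was not tested, and the libraries are called by their numbers below.

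The transcriptome was spread over many genes, with a modest concentration at the top. The 10 genes with the most counts took 7.76%, 7.63% and 8.35% of the library, and the first 100 took 27.1%, 27% and 27.5%. Between 546 and 567 genes made up 50% of the counts. At least 1 count was recorded for 24150, 22883 and 23218 genes. Brought to the depth of library 2, the shallowest, the expected numbers were 23565, 22883 and 22797, so the libraries were of near-equal complexity. Of 20018 protein-coding genes, 10737 reached 1 TPM in all 3 libraries, 1511 averaged at least 100 TPM and 113 at least 1000 TPM.

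Protein-coding genes held 96.5% ± 0.373 of the counts and long noncoding RNA (lncRNA) genes 3.03% ± 0.302. The lncRNA share was 3.21%, 3.2% and 2.68%, lowest in library 3. Genes of the mitochondrial genome took 0.321%, 0.405% and 0.236%, and pseudogenes 0.0883% ± 0.00506. Of 36992 annotated lncRNA genes 1547 had at least 10 counts in all 3 libraries, as did 11034 coding genes. As a share of TPM, in which short genes weigh more, lncRNA genes made up 8.98% ± 1.07.

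A few loci held a large part of the lncRNA counts. The highest 2 genes held 27.4%, 25% and 20.2% of all lncRNA counts, and the highest 10 held 39.8% ± 3.35. The catalogue number n270541 led them, with 70815, 43553 and 36326 counts, and its mean of 31481 ± 8274 TPM was above that of every gene of any class. By library it stood at 39376, 32193 and 22874 TPM, above Lgals1, the highest coding gene (28020, 26039 and 23725 TPM), in libraries 1 and 2 but not in library 3. It lies at mm9 chr5:143664920-143665325, plus strand, 94 bases past the annotated 3′ end of Actb, the gene of cytoplasmic beta actin, and on the other strand. The Actb gene (chr5:143665420-143668404, minus strand) has 1265 exon bases in the deposited annotation, while the longest Actb transcript of the GENCODE M21 annotation has 1920, a difference of 655 bases. The far edge of n270541 is 500 bases past the deposited Actb end. These libraries do not keep the strand, so reads of a longer Actb messenger and of n270541 cannot be told apart. In CPM, n270541 was 6561, 5359 and 3546, highest in library 1, while Actb was 6429.8, 6449.9 and 6923, highest in library 3.

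Other lncRNA loci were lower. The gene n265358 (mm9 chr11:108872993-108873432, minus strand) had 2233, 2635 and 1861 CPM and lies 60895 bases from the nearest coding gene, Axin2. The gene n177784 (chr19:5795689-5802671, minus strand) had 1643, 1809.9 and 1316 CPM, with 60.9% of its exon bases in other lncRNA genes. The genes n265082, within the span of Zc3h7a, and n264818, within that of Parp9, had 483, 554 and 444 and 354, 619 and 464 CPM. Farther than 1 kb from coding genes were also n413827, at 457, 473 and 493 CPM, n413706, at 331, 482 and 501 CPM, n297435, at 463, 388 and 332 CPM, and n420419, at 289, 349.7 and 224 CPM. The first of these was nearly level across libraries, and n297435 lies only 1580 bases from Tns1, on the same strand. The gene n279722, on the same strand within Wwp2, had 579, 449 and 377 CPM. By position, genes farther than 1 kb from any coding gene held 35.4% ± 1.43 of lncRNA counts and those within 1 kb past a coding gene's 3′ end 23.1% ± 3.27. Genes that share exon bases with a coding gene held 21.1% ± 1.43. With only the loci farther than 1 kb counted, an alternative chosen after the data were seen, the lncRNA share of all counts was 1.07%. A limit of 1 kb does not exclude reads of coding messengers that run past it.

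Ranked per length, the coding transcriptome was led by small cytoplasmic proteins and by actin. Lgals1, the gene of galectin 1, a sugar-binding protein that cells export, was first at 28020, 26039 and 23725 TPM. S100a4 and S100a6, calcium-binding proteins of motile mesenchymal cells, followed at 16635, 20622 and 17733 and 13538, 17888 and 15772 TPM, both highest in library 2. Smooth muscle actin, Acta2, ranked 4 at 16263, 13261 and 15419.6 TPM, above cytoplasmic beta actin, Actb, at 12384, 12435 and 14332 TPM. The ratio of Acta2 to Actb per length was 1.15 ± 0.14. This ratio and the order of the 2 actins leave out the counts of n270541. Those cannot be told apart from reads of a longer Actb messenger, so the order is uncertain. Next came the ribosomal stalk protein Rplp1 (11257 ± 1164 TPM), the ferritin chains Fth1 (9942 ± 847 TPM) and Ftl1 (5794 ± 509.7 TPM), which store iron, and the ribosomal protein Rps26 (6850.0 ± 1151 TPM). Fibronectin, Fn1, ranked 10 at 5723 ± 870.1 TPM, ahead of the intermediate filament protein vimentin, Vim, at 5142 ± 404 TPM and of the matrix proteoglycan biglycan, Bgn, at 4934 ± 606 TPM. The lysosomal protease Ctsd (4356 ± 508 TPM) and the antiviral membrane protein Ifitm3 (4301 ± 717 TPM) came after these. Elongation factor Eef2 (4058 ± 200.4 TPM), the mechanically regulated nuclear protein Ankrd1 (3713 ± 118 TPM), the secreted Igfbp7 (3601 ± 728 TPM), the small heat shock protein Cryab (3557 ± 164 TPM) and the actin-severing cofilin Cfl1 (3519 ± 324 TPM) were also among the highest 20.

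**Figure D1:**
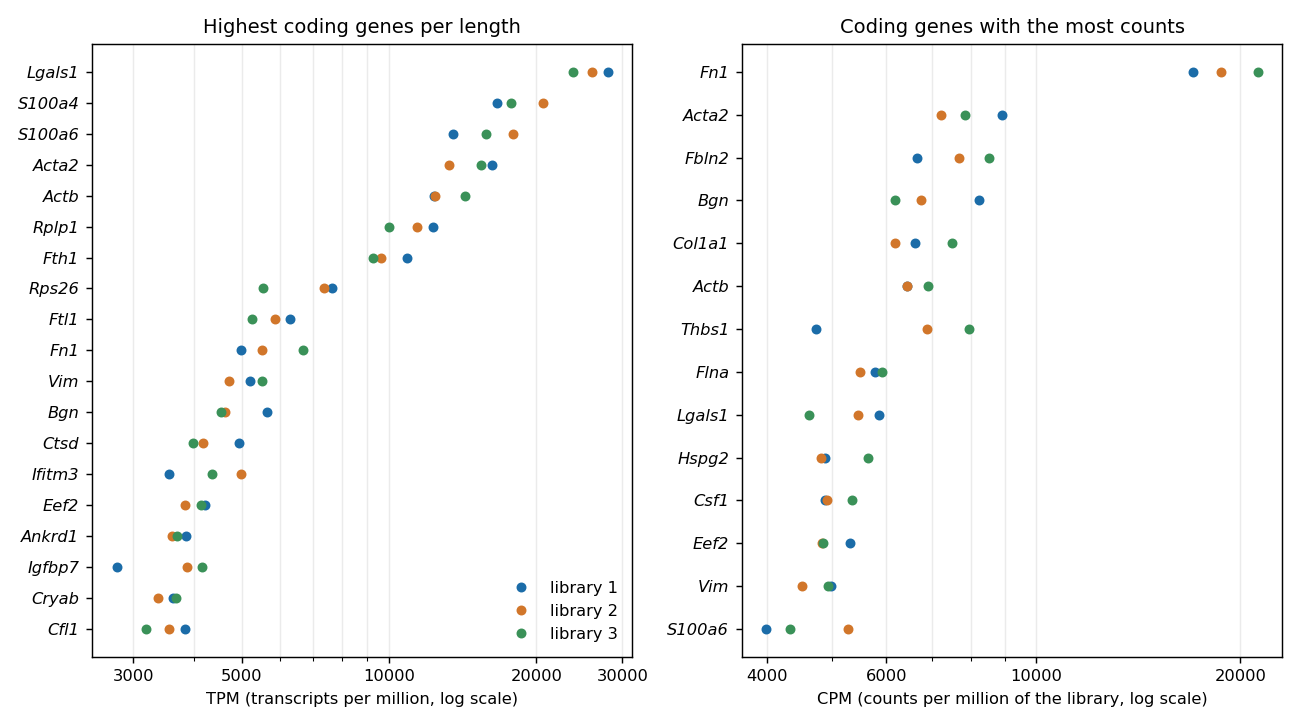
Levels of the 20 coding genes highest in TPM (left) and of the 15 with the most CPM (right), both on log axes, with 1 point per library and 1 gene of each ranking not shown. Lgals1 leads per length and Fn1 leads in counts, and the points of a gene mostly lie closer to each other than to the genes at the other end of the ranking.

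Counted without length, long matrix transcripts led instead. Fn1 alone took 18998 ± 2112 CPM, followed by Acta2 (7986 ± 834), fibulin 2, Fbln2 (7620.4 ± 916), Bgn (7059 ± 1059), the collagen I chain Col1a1 (6761 ± 675), Actb (6601 ± 279) and thrombospondin 1, Thbs1 (6528 ± 1648 CPM). The value of Actb leaves out the counts of n270541 (5156 ± 1518 CPM). The actin cross-linker Flna (5724 ± 209 CPM), the basement membrane proteoglycan perlecan, Hspg2 (5105 ± 459 CPM), and the macrophage growth factor Csf1 (5049 ± 262 CPM) were among the first 15 in counts. Only 11 genes were among the highest 20 on both scales. Of the first 20, 8 had at most 1000 exon bases in the TPM ranking and 3 in the CPM ranking.

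The 5 genes given as markers of these cells stood between 2580.1 ± 366 TPM, for Col1a1, and 14981 ± 1549 TPM, for Acta2. Fn1, the fibronectin that cells spin into fibres, was at 4986, 5499.6 and 6683 TPM, and Fbln2, which links fibronectin to elastic fibres and basement membranes, at 2767, 3189 and 3789.7 TPM. Both were lowest in library 1 and highest in library 3. Col1a1, the main chain of the heart's fibrillar collagen, was at 2454, 2295 and 2992 TPM. Thbs1, a secreted glycoprotein that can activate latent transforming growth factor beta, varied most of the 5, at 1896, 2769.9 and 3432 TPM, with library 1 the lowest. Acta2 was at 16263, 13261 and 15419.6 TPM, with library 2 the lowest. Together the 5 genes took 4.39%, 4.67% and 5.3% of all counts.

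Genes of extracellular matrix formed the largest share of counts among the functions examined once their lists were summed. The 4 matrix lists (collagens, glycoproteins, proteoglycans and processing enzymes) together held 12.5%, 12.7% and 13.7%, highest in library 3, and 24 of the 100 highest coding genes per length. Both values include cathepsins such as the lysosomal protease Ctsd, which the processing list holds. All 17 function lists together, with 848 genes, held 31.9% ± 0.142 of the counts and 68 of those 100 genes. Among glycoproteins, which took 5.21%, 5.71% and 6.24%, 66 of 80 genes reached 1 TPM in all libraries, with a median of 37.2 TPM. After Fn1, Igfbp7, Fbln2 and Thbs1 came extracellular matrix protein 1, Ecm1 (2109 ± 183 TPM), the matricellular protein Cyr61 (1893 ± 126 TPM) and Sparc (1825 ± 213 TPM), which binds collagen. Aebp1 (1403 ± 118 TPM), Wisp2 (1307 ± 101 TPM) and the matricellular protein Ctgf (1194 ± 140.3 TPM) followed. Tnc, a glycoprotein of wounds, was at 186, 227 and 279 TPM and periostin, Postn, which helps collagen to cross-link, at 57.4 ± 15.6 TPM. Elastin, Eln, is listed at 0 with 98.2% of its exon bases shared. The laminins of basement membranes were represented by Lamb1 (269 ± 38.8 TPM) and Lamc1 (243 ± 38.1 TPM), while the alpha chain Lama1 stood at 0.927 ± 0.107 TPM.

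**Figure D2:**
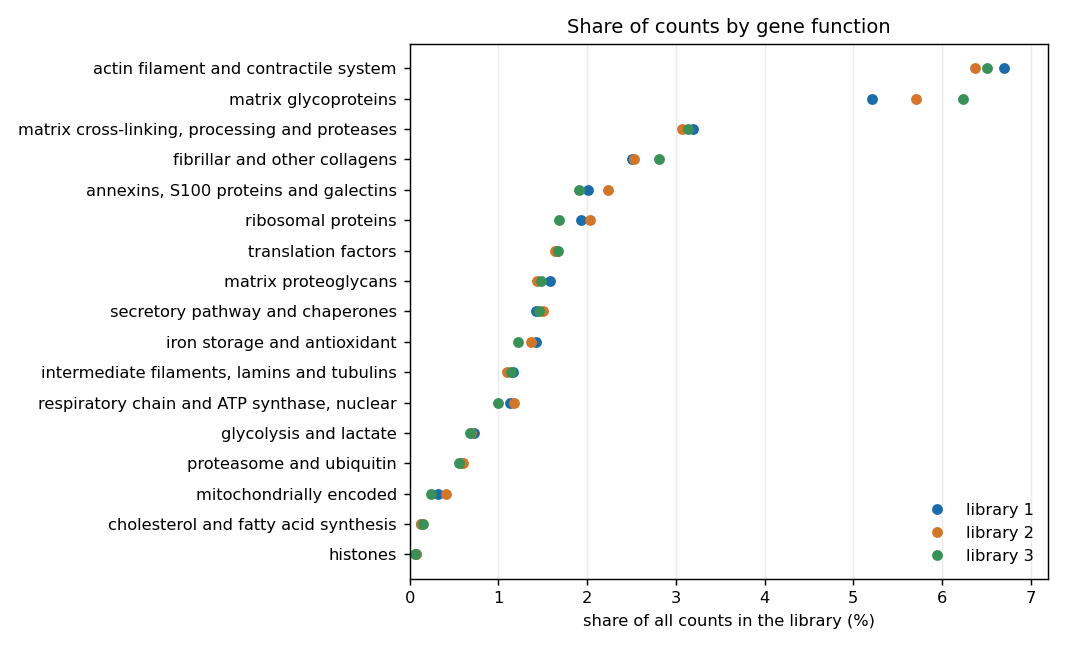
Share of each library's counts held by 17 gene functions, with 1 point per library on a linear axis that starts at 0. The actin and contractile system, at 6.37% to 6.70%, and matrix glycoproteins, at 5.21% to 6.24%, hold the largest shares.

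Collagen genes held 2.51%, 2.53% and 2.82% of counts, yet the family was uneven: 24 of 41 genes reached 1 TPM in all libraries and 11 averaged at least 100 TPM. Col1a1 (2580.1 ± 366 TPM) was followed by the 2 chains of basement membrane collagen IV, Col4a1 (1532 ± 114 TPM) and Col4a2 (1278 ± 108 TPM), and by Col5a2 (901 ± 172 TPM), a chain of the collagen that starts fibrils. The partner chain Col1a2 stood at 516, 577 and 722 TPM, so that Col1a1 was 4.76, 3.97 and 4.15 times as high per length. That ratio depends on the annotated lengths, 12136 exon bases for Col1a2 and 6563 for Col1a1. Without length, Col1a2 was at 2929 ± 391 CPM and Col1a1 at 6761 ± 675 CPM. The secreted collagen I molecule itself holds more alpha 1 than alpha 2 chains. For collagen IV the ratio of Col4a1 to Col4a2 was 1.2 ± 0.12. Col3a1, which is abundant in soft tissue, was at 133, 178 and 196 TPM. The cartilage collagen Col2a1 was at 2.38 ± 0.312 TPM, Col15a1 at 0.355 ± 0.233 TPM, and Col6a6, the lowest, is listed at 0.

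Proteoglycans held 1.59%, 1.44% and 1.49%, most of it from Bgn, Hspg2 (895 ± 119 TPM) and Prelp (852 ± 123 TPM), which anchors collagen to basement membranes. The syndecan Sdc4 was at 342 ± 18.7 TPM and decorin, Dcn, which coats collagen fibrils, at 264 ± 27.5 TPM. Lumican, Lum, another proteoglycan of fibrils, was at only 0.859 ± 0.168 TPM, and the link protein Hapln1 was the lowest at 0.0213 ± 0.0368 TPM. The enzymes and inhibitors of the matrix held 3.19%, 3.07% and 3.14%. The list also counts Ctsd, the lysosomal protease named above (4407 ± 646 CPM). It was among the highest members. The cathepsins Ctsb, Ctsl and Ctsz (1162 ± 36.9, 733 ± 74.3 and 643 ± 51.4 CPM) and the inhibitor Cst3 (1204 ± 125 CPM) are counted too. The metalloproteinase inhibitor Timp1 was at 3498, 3479 and 3326 TPM and the collagen cross-linker lysyl oxidase, Lox, at 2755, 3104 and 4269.7 TPM, highest in library 3. The collagen chaperone Serpinh1 was at 2728 ± 138 TPM. The ratio of Timp1 to the gelatinase Mmp2, which it can inhibit, was 20, 19.1 and 17.6 per length. The membrane-bound Mmp14 reached 712 ± 171 TPM, the collagenase Mmp13 1.57 ± 1.72 TPM and Mmp9, the gelatinase of leukocytes, 0.503 ± 0.505 TPM. Bmp1, which trims procollagen, had 0.0184 ± 0.0319 TPM with 99% of its exon bases shared.

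The actin and contractile system held the largest share of counts of any single function, 6.7%, 6.37% and 6.51%. As a share of TPM it held 6.38% ± 0.294, under the 7.09% ± 0.459 of annexins, S100 proteins and galectins. All 76 genes of that list reached 1 TPM in every library, 59 averaged at least 100 TPM, and the median was 311 TPM. Beside the actins and Cfl1, the myosin regulatory light chain Myl9 was at 2967, 2767 and 2789.9 TPM and the filament cross-linker alpha actinin 1, Actn1, at 1918, 1435 and 1745 TPM. Calponin 1, Cnn1, a marker of contractile cells, was at 154, 149.8 and 154 TPM, nearly level across the libraries. Transgelin, Tagln, another such marker, was at 729.8, 653 and 530.3 TPM with 66.1% of its exon bases shared. The myosin light chain kinase Mylk was lowest at 5.49 ± 0.85 TPM. Intermediate filaments, lamins and tubulins held 1.16%, 1.09% and 1.15%, with Vim, the tubulin chains Tubb5 (1506 ± 82.2 TPM) and Tuba1a (667 ± 63.7 TPM) and lamin A, Lmna (589 ± 22.7 TPM), in front. The testis tubulin Tuba3a is listed at 0. The epithelial keratins Krt8 and Krt18 were at 0.491 ± 0.618 and 1.29 ± 0.652 TPM.

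Annexins and S100 proteins, which bind calcium, and the sugar-binding galectins made up a further 2.02%, 2.24% and 1.91%. The list was led by Lgals1, S100a4, S100a6 and S100a11 (3093 ± 421 TPM), and the annexin genes Anxa1 and Anxa2 stood at 1305 ± 173 and 1173 ± 30.1 TPM. The neutrophil proteins S100a8 and S100a9 were at 5.11 ± 1.58 TPM and listed at 0. Iron storage and antioxidant genes held 1.43%, 1.36% and 1.22%, with Fth1 at 1.72 ± 0.0635 times Ftl1 per length. The haem-degrading enzyme Hmox1 was at 1486, 1364 and 1496 TPM and the peroxidase Gpx1 at 1281 ± 22.2 TPM. The transferrin receptor Tfrc, which brings iron into the cell, was at 8.94 ± 3.08 TPM. The metallothionein Mt1 was the lowest of this group at 0.943 ± 0.866 TPM (64.7% of exon bases shared).

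Genes of protein synthesis took 1.93%, 2.03% and 1.69% for ribosomal proteins and 1.66%, 1.64% and 1.67% for translation factors. Ribosomal proteins are assembled in fixed numbers per ribosome, yet their genes ranged from 11257 ± 1164 TPM for Rplp1 through a median of 57.9 TPM to 0 for 3 genes. Many of them have near-identical copies in the genome, so that single values may be uncertain, which was not tested. TPM also depends on the annotated exon length. Rps3, with 4483 exon bases, had 1053 ± 147 CPM and 585 ± 63.4 TPM, while Rps26, with 434 exon bases, had 1197 ± 244 CPM and 6850 ± 1151 TPM. After Rplp1 and Rps26 came Rpl8 (3514 ± 172 TPM) and Rps15 (3485 ± 338 TPM), and Rps28 is listed at 0 (99.7% shared). Eef2 led the translation factors, followed by Eef1a1 (1653 ± 425 TPM), Eef1b2 (608 ± 42 TPM) and the initiation factor subunit Eif3k (561 ± 43.3 TPM). The secretory pathway and chaperones held 1.43%, 1.51% and 1.46%, led by the chaperones Hsp90ab1 (2144 ± 159 TPM) and calreticulin, Calr (1140.1 ± 34.1 TPM). The prolyl isomerase Ppib (654 ± 96.2 TPM, 59.1% of exon bases shared) and the chaperonin subunit Cct2 (527 ± 89.7 TPM) followed, and Mia3 is listed at 0. Proteasome and ubiquitin genes held 0.591%, 0.604% and 0.56%, led by the subunits Psmb1 (827 ± 58.8 TPM), Psmd8 (716 ± 18 TPM) and Psmb2 (549 ± 60.1 TPM). Glycolysis genes held 0.725%, 0.692% and 0.678%, with aldolase, Aldoa, at 2176 ± 55.5 TPM, pyruvate kinase, Pkm2, at 2101 ± 22.8 TPM and lactate dehydrogenase A, Ldha, at 657 ± 44 TPM. The next was Gpi1 (220.3 ± 32.9 TPM) and the lowest the aldolase Aldoc (1.62 ± 0.637 TPM). Nuclear genes of the respiratory chain held 1.14%, 1.17% and 0.993%, led by the cytochrome oxidase subunits Cox8a (1864 ± 157 TPM) and Cox4i1 (1738 ± 106 TPM), Cox6a1 (1598 ± 211 TPM) and Cox7a2 (1384 ± 170.2 TPM). Of 13 protein genes of the mitochondrial genome, 6 are listed at 0 in every library, mt-Co2 and mt-Atp6 among them, while mt-Nd1 had 2056, 2404 and 1501 TPM and mt-Cytb 1319, 1576 and 861 TPM. Next were mt-Co1 (1152 ± 190.0 TPM) and mt-Nd6 (802 ± 296 TPM). The sum over that genome therefore covers part of it only, and its shared exon bases are not given because the annotation carries the genome under the names M and MT. Cholesterol and fatty acid synthesis held 0.135% ± 0.0114, led by Acly (101 ± 14.8 TPM), Scd2 (83.6 ± 16 TPM), Fasn (82.1 ± 14 TPM) and the regulator Srebf1 (51.5 ± 5.18 TPM), and histone genes 0.0683% ± 0.00485. Most histone messengers lack the poly(A) tail that the oligo(dT) step binds. The replacement histone H2afj was the highest of them at 603 ± 169 TPM, followed by Hist1h2bc (302 ± 38.9 TPM), the linker histone Hist1h1c (195 ± 15 TPM) and H2afx (93.5 ± 24.9 TPM).

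Among lists of single cell types, that of fibroblasts had the highest median and share of counts, and lists of other heart cells stood lower. Of 22 fibroblast and mesenchymal markers 20 reached 1 TPM in all libraries, and the list held 2.44%, 2.5% and 2.65% of counts. That sum, 24395, 24976 and 26473 CPM, rests largely on few genes. They are Col1a1 (6761 ± 675 CPM), Vim (4804 ± 255 CPM) and S100a4 (4315 ± 562 CPM), and other members ranged down to under 1 TPM. Col1a1, also among the supplied marker genes given above, is in this list. The surface protein Thy1 was at 349.8, 350.3 and 328 TPM, the collagen receptor Ddr2 at 110.4, 103 and 131 TPM and the platelet-derived growth factor receptors Pdgfrb and Pdgfra at 285, 275 and 328 and 62.2, 90.4 and 96.8 TPM. Pdgfra was thus 0.281 ± 0.057 times Pdgfrb. Tcf21, the transcription factor of the cardiac fibroblast lineage, was at 160.3, 218 and 264 TPM. The cross-linker Loxl1 (589 ± 57.9 TPM) and the actin-severing gelsolin, Gsn (554 ± 44.4 TPM), were among the highest after S100a4 and Vim. The microfibril protein Mfap5 was at 134 ± 19.1 TPM, the mesenchymal cadherin Cdh11 at 99.5 ± 20.9 TPM and the matrix protein Dpt at 12.6 ± 2.46 TPM. The mesenchymal factors Prrx1 (60.1% of exon bases shared) and Twist1 were at 45.7 ± 7.88 and 35.5 ± 3.27 TPM. The members at the bottom were Lum and the activation marker Fap, at 0.0977 ± 0.169 TPM.

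**Figure D3:**
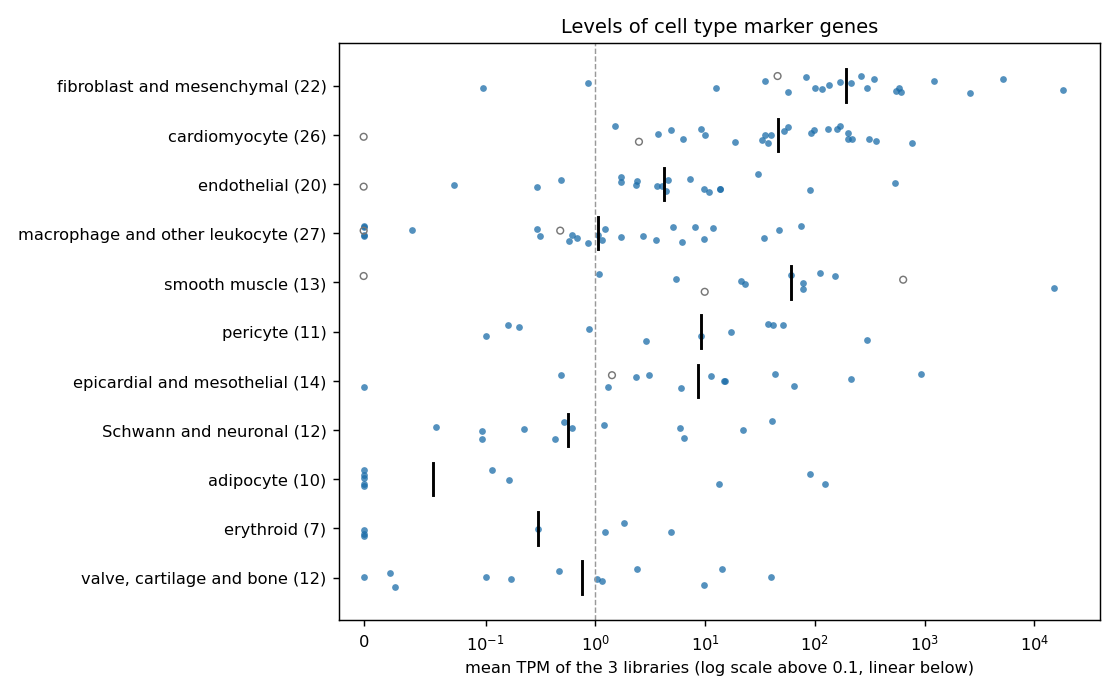
Mean TPM of the 3 libraries for every member of the cell type marker lists (number of members after the name), log scale above 0.1. Filled points are genes with under 50% of exon bases shared, open points the rest, black bars list medians and the dashed line 1 TPM. Fibroblast and smooth muscle lists have the highest medians, 191.5 and 61.2 TPM, and adipocyte and erythroid lists the lowest, under 1 TPM.

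Cardiomyocyte transcripts were measurable in all 3 libraries. The 26 markers together held 0.245%, 0.212% and 0.186% of counts, highest in library 1 and lowest in library 3, and 24 reached 1 TPM in every library. Myoglobin, Mb, which stores oxygen in muscle, was at 854, 753 and 692 TPM and cardiac troponin T, Tnnt2, at 416, 337 and 328 TPM. The ventricular light chain Myl2 was at 248, 219 and 192 TPM, the alpha myosin heavy chain Myh6 at 223, 197 and 183 TPM and cardiac actin, Actc1, at 219, 203 and 175 TPM. In each of these 5 genes library 1 was the highest and library 3 the lowest. Other sarcomere genes were Tnnc1, Myl3 and Tnni3 at 171 ± 20.5, 159.7 ± 22.3 and 131 ± 8.47 TPM, Tcap and Csrp3 of the Z disc at 57 ± 6.36 and 52.2 ± 4.02 TPM, and Mybpc3, Actn2 and Ldb3 at 37.3 ± 8.24, 33 ± 1.96 and 18.6 ± 1.56 TPM. Genes of muscle energy supply were Cox6a2 at 313 ± 23.4 TPM, Fabp3 at 97.4 ± 6.48 TPM, Ckm at 93.1 ± 12.7 TPM and Ckmt2 at 34.8 ± 4.73 TPM. The brain natriuretic peptide gene Nppb was at 39.7 ± 5.21 TPM and phospholamban, Pln, which restrains the calcium pump, at 10 ± 1.29 TPM. The atrial markers Nppa and Myl7 were lower, at 9.21 ± 0.983 and 1.5 ± 1.11 TPM, and the calcium pump Atp2a2 is listed at 0 with 100% of its exon bases shared. The ratio of Tnnt2 to Myh6 was 1.87, 1.71 and 1.79, much the same in each library. Whether these transcripts came from surviving muscle cells or from RNA carried over was not tested.

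Endothelial markers summed to 0.108%, 0.103% and 0.106%, with 16 of 20 genes at 1 TPM or more in every library, and a single gene held most of it. That gene was endoglin, Eng, a coreceptor of transforming growth factor beta that activated fibroblasts make too, at 548, 506 and 558 TPM. The fatty acid carrier Fabp4 was at 90.7 ± 6.53 TPM. The more specific genes were low: VE-cadherin, Cdh5, at 24.8, 29.8 and 36.3 TPM, the receptors Kdr and Tek at 2.38 ± 0.632 and 2.36 ± 0.472 TPM, claudin 5, Cldn5, at 0.482 ± 0.059 TPM Ptprb, Emcn and Egfl7 at 13.7 ± 3.01, 13.7 ± 2.39 and 10.8 ± 1.41 TPM, and von Willebrand factor, Vwf, at 0.292 ± 0.141 TPM. Pecam1 is listed at 0 with 81.1% of its exon bases shared. Leukocyte markers summed to 0.0156%, 0.0143% and 0.0141%. Lysozyme, Lyz2, was at 67.4, 68.3 and 90.1 TPM, the lysosomal protein Cd68 at 58.4, 43.7 and 39.3 TPM and the receptor for Csf1, Csf1r, at 35.5, 33.1 and 35.1 TPM, followed by the adaptor Tyrobp at 11.7 ± 4.82 TPM. The common leukocyte antigen Ptprc was at 0.296 ± 0.198 TPM, the complement genes C1qa, C1qb and C1qc at 1.71 ± 0.471, 1.22 ± 1.12 and 0.854 ± 0.631 TPM, and the lymphocyte gene Cd3e is listed at 0.

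Smooth muscle markers held 1.03%, 0.843% and 0.902%, mostly Acta2. Smooth muscle myosin, Myh11, the more specific marker, was at 82.4, 67.1 and 84.1 TPM, and its master regulator myocardin, Myocd, at 1.09 ± 0.188 TPM. Leiomodin, Lmod1, was at 111 ± 20.1 TPM, smoothelin, Smtn, at 78.7 ± 8.07 TPM, desmin, Des, at 61.2 ± 8.64 TPM, Synpo2 at 23.2 ± 2.85 TPM and Casq2, which cardiomyocytes also express, at 21.2 ± 5.28 TPM. Ckb is listed at 0 (99.9% of exon bases shared). Among pericyte markers, Pdgfrb is shared with fibroblasts. The more restricted genes Cspg4, Rgs5 and Kcnj8 were at 9.18 ± 2.21, 2.87 ± 0.232 and 0.16 ± 0.143 TPM, and Notch3, a receptor of mural cells, was at 41.8 ± 6.48 TPM. Ndufa4l2, Mcam and Cox4i2 were at 51.2 ± 3.12, 37.1 ± 8.03 and 17.2 ± 6.55 TPM and Higd1b, the lowest, at 0.101 ± 0.174 TPM. Of 14 epicardial and mesothelial markers 11 reached 1 TPM, led by the retinoic acid enzyme Aldh1a1 (854, 926 and 977 TPM). Second was Tcf21, which is also in the fibroblast list and is given above. The retinoic acid enzyme Aldh1a2 (64 ± 8.55 TPM) and the transcription factor Tbx18 (43.6 ± 2.48 TPM) followed. Wt1, the regulator of the epicardium, was at 1.42 ± 0.603 TPM with 60.9% of its exon bases shared, and mesothelin, Msln, at 3.06 ± 0.551 TPM. Krt19, Upk3b and Upk1b were at 15.1 ± 1.76, 14.8 ± 0.986 and 11.4 ± 4.1 TPM and Muc16 is listed at 0. Nerve and Schwann cell markers held 0.0128% ± 0.00234, mostly the tubulin Tubb3 and the adhesion protein Ncam1 (40.6 ± 2.31 and 22.3 ± 4.96 TPM), with Gap43 and S100b at 6.44 ± 0.327 and 5.89 ± 2.08 TPM and the Schwann cell factor Sox10 at 0.0968 ± 0.101 TPM. Of the adipocyte list, lipoprotein lipase, Lpl, and Pparg were at 123 ± 14.6 and 13.5 ± 3.23 TPM while adiponectin, Adipoq, and perilipin, Plin1, are listed at 0. The globin gene Hba-a1 was at 4.93 ± 2.39 TPM, Hbb-b2 at 1.83 ± 0.998 TPM and Hbb-b1 is listed at 0. Of cartilage and bone genes, the transcription factors Sox9 and Runx2 were at 39.8 ± 6.6 and 9.82 ± 0.527 TPM, alkaline phosphatase, Alpl, at 14.2 ± 0.462 TPM and the cartilage proteoglycan Acan at 0.1 ± 0.105 TPM, and Ibsp is listed at 0.

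Lists of the activated and of the resting state stood at different levels. Both were drawn up with earlier results of these data known, and the myofibroblast list holds the supplied marker genes Acta2, Fn1 and Col1a1. Of 26 myofibroblast genes 25 reached 1 TPM in all libraries, with a median of 459 TPM and 5.86% ± 0.341 of counts. Acta2, Fn1 and Timp1 were among its highest members, and Postn, Cthrc1 (15.2 ± 4.88 TPM) and Fap were at its bottom. All 3 are known from activated fibroblasts in scars. Of 24 genes of resting fibroblasts 18 reached 1 TPM, with a median of 16 TPM. Gsn, given above, led the list. The complement component C3 was at 305, 304 and 352 TPM and the stem cell antigen Ly6a at 105, 129 and 178 TPM. Pi16, Dpp4 and Scara5, which mark a reservoir population of fibroblasts in many tissues, stood at 0.342 ± 0.311, 0.249 ± 0.239 and 0.0821 ± 0.142 TPM. Over all coding genes, 10737 of 20018 reached 1 TPM.

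**Figure D4:**
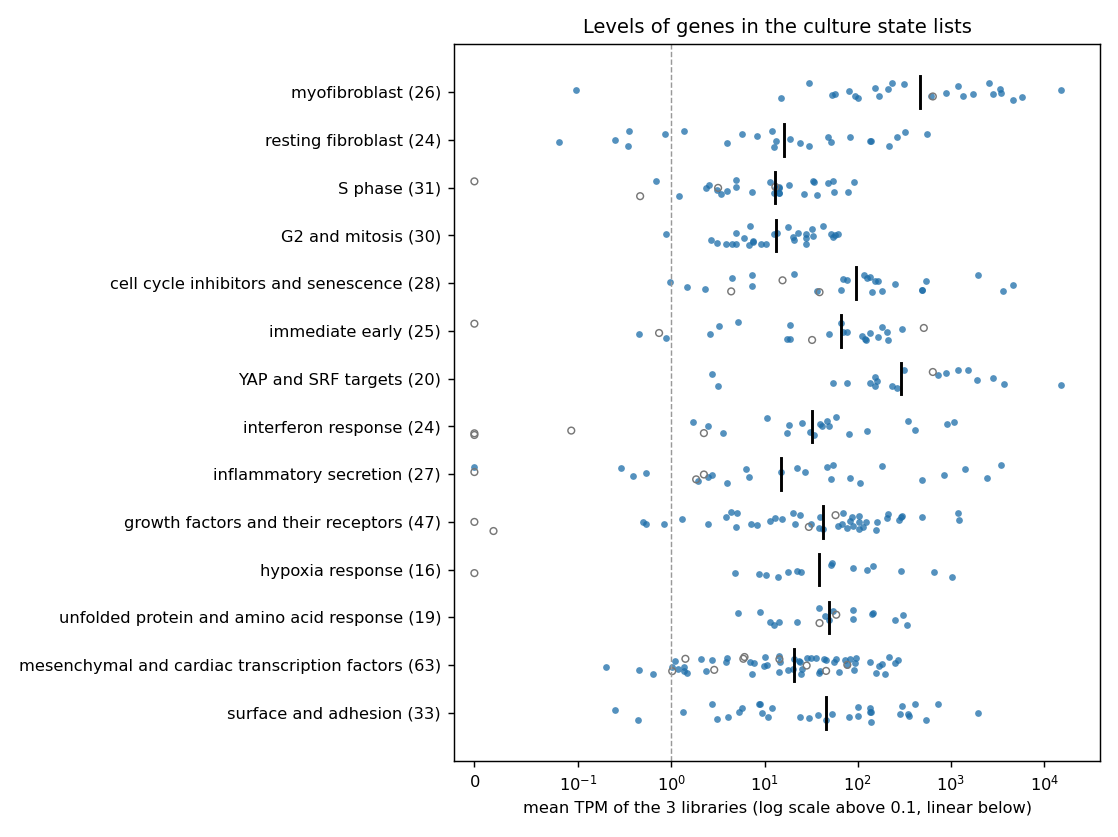
Mean TPM of the 3 libraries for every member of the 14 culture state lists (number of members after the name), drawn as in the plot of cell type markers. The myofibroblast list has the highest median, 459.2 TPM, and S phase and G2 lists lie near 13 TPM.

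Genes of the dividing cell were expressed at lower levels. Of 31 S phase genes 27 reached 1 TPM in all libraries, with a median of 13.1 TPM, and of 30 genes of G2 and mitosis 29 did, with a median of 13.1 TPM. The ribonucleotide reductase chains Rrm1 and Rrm2, which make DNA precursors, were at 75.7, 89.2 and 108 and 27, 37.5 and 46.4 TPM, and the replication clamp Pcna at 43.4, 54 and 63.7 TPM. All 3 were lowest in library 1 and highest in library 3. The clamp loader subunit Rfc2 was at 78.9 ± 4.83 TPM and the factor E2f1, which switches on S phase genes, at 55 ± 1.75 TPM. The mitotic list was led by Cks2 (60.9 ± 3.86 TPM), Cdc20 (54.3 ± 2.22 TPM) and Ube2c (51.2 ± 6.39 TPM). Cyclin B2, Ccnb2, was at 48.8, 68.2 and 55.8 TPM, the mitotic kinase gene listed as Cdc2a at 36.8, 45.1 and 44.6 TPM and the proliferation antigen Mki67 at 9.49, 11.6 and 16.7 TPM. The lowest members were the thymidylate synthase Tyms (0.464 ± 0.53 TPM, 62.4% of exon bases shared), Cdt1, listed at 0 with 99.5% shared, and the centromere histone Cenpa (0.879 ± 0.6 TPM). Genes that halt the cycle were present at the same time. The p53 target Cdkn1a was at 1974, 1911 and 1892 TPM, level across libraries, and the inhibitors Cdkn2a and Cdkn2b, which accumulate in cells kept in culture, were at 144, 150.1 and 169 and 127, 129 and 152 TPM. Their ratio was 1.14 ± 0.0253. Other p53 targets were the apoptosis regulator Phlda3 (541 ± 20 TPM), Ccng1 (488 ± 99.6 TPM) and Mdm2 (254 ± 53.9 TPM). A culture summed in bulk does not show whether dividing and arrested states lie in the same cells.

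The culture expressed genes of chemokines and growth factors that act on neighbouring cells. Ccl2, which draws monocytes, was at 2655, 3791 and 3979 TPM and its relative Ccl7 at 1199, 1430.4 and 1614 TPM, both lowest in library 1. Mif, a cytokine that many cell types make, was at 837 ± 181 TPM. Csf1, on which macrophages depend, was at 2259.8, 2278 and 2663 TPM. Of 27 genes of inflammatory secretion 20 reached 1 TPM. Cxcl1, which draws neutrophils, was at 483 ± 70.8 TPM and Il6 at 136, 201 and 205 TPM, while the cytokines Tnf and Il1b, which leukocytes make, were at 0.538 ± 0.171 TPM and listed at 0. Of 47 growth factor and receptor genes 41 reached 1 TPM. Among ligands, follistatin-like 1, Fstl1, was at 1226 ± 59.7 TPM, the activin chain Inhba at 578, 446 and 446 TPM and Bmp4 at 289, 262 and 285 TPM. Of the 3 transforming growth factors, Tgfb3 was at 235, 174 and 206 TPM, Tgfb1 at 119.9, 87.6 and 100 TPM and Tgfb2 at 71.9, 71.1 and 84.6 TPM. Among receptors, Pdgfrb was highest, followed by Fgfr1 (159 ± 12.1 TPM), and the receptors for transforming growth factor beta, Tgfbr2 and Tgfbr1, were at 42.1 ± 10.9 and 4.41 ± 1.58 TPM. The ligands Igf2 and Areg were at 1.31 ± 0.333 and 0.531 ± 0.463 TPM, and follistatin, Fst, is listed at 0 with 98.8% shared.

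Transcription factors of mesenchyme and of the heart were widely expressed. Of 63 factors 54 reached 1 TPM in all libraries. Creb3l1, which drives collagen genes, was at 330.3, 224 and 264 TPM. The cardiac factors Tbx20, Hand2 and Gata4 were at 185, 253 and 311, 178, 152 and 170.2 and 71.5, 73.4 and 84.7 TPM, and Tcf21 at the level given above. Snai1, a driver of mesenchymal conversion, was at 243, 164 and 186 TPM and the BMP target Id1 at 184, 173 and 193 TPM. Yap1 was at 151, 150.2 and 169 TPM, Srf at 171, 110.0 and 124 TPM, the forkhead factor Foxs1 at 111, 81 and 91.7 TPM and Osr1 at 77.5, 94.3 and 111 TPM. The cardiomyocyte factors Nkx2-5 and Tbx5 were at 10.6 ± 3.12 and 3.9 ± 0.808 TPM, and Gata5, the lowest, at 0.197 ± 0.131 TPM. On the cell surface, the tetraspanins Cd81 and Cd63 (1930.3 ± 118 and 717 ± 89.8 TPM) stood highest, followed by Eng. The integrin chains Itgb5, Itgb1 and Itga5, receptors for the matrix, were at 414 ± 14.3, 354 ± 63.1 and 282 ± 22.9 TPM. Podoplanin, Pdpn, was at 265, 309.5 and 325 TPM, and Kit and Dpp4 were at 0.442 ± 0.315 and 0.249 ± 0.239 TPM.

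Genes of stress and of oxygen supply were on at intermediate levels. Adrenomedullin, Adm, a vasodilator peptide induced by low oxygen, was at 1175, 904 and 991 TPM, while Car9, a more restricted hypoxia gene, was at 4.88 ± 1.61 TPM. Of 16 hypoxia genes 15 reached 1 TPM, with a median of 38.2 TPM. The collagen hydroxylase subunit P4ha1 was at 294 ± 27.1 TPM and the growth inhibitor Ddit4 at 146 ± 12.6 TPM. Ankrd37 is listed at 0 (77.8% of exon bases shared). All 19 genes of the unfolded protein and amino acid response reached 1 TPM. They ran from Hsp90b1 (336 ± 27.8 TPM) and Atf4 (310.0, 292 and 318 TPM) through the chaperone Hspa5 (253 ± 42.3 TPM) down to Atf3 (5.25 ± 0.668 TPM). Immediate early genes, which respond to stimuli within minutes, had a median of 66.3 TPM, led by Ier3 (511 ± 34.9 TPM, 57.6% of exon bases shared) and Maff (295 ± 15.1 TPM). The AP-1 members Fosl2 and Junb were at 212 ± 18.4 and 205 ± 24.8 TPM, Egr1 at 102, 63.3 and 67.6 TPM and Fos at 16.4, 18.8 and 21.7 TPM, while the Nr4a family member Nr4a3 was at 0.455 ± 0.424 TPM. Zfp36 is listed at 0 with 100% of its exon bases shared.

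Targets of YAP and of SRF stood high in the culture. All 20 genes of that list reached 1 TPM in every library, 16 averaged at least 100 TPM and the median was 288 TPM. Over all coding genes 1511 of 20018 averaged at least 100 TPM. The list holds genes that were known to be high here when it was drawn up. Ankrd1 was at 3840.1, 3607 and 3691 TPM, Myl9 at 2967, 2767 and 2789.9 TPM, Cyr61 at 1888, 1769.9 and 2022 TPM and the focal adhesion protein vinculin, Vcl, at 223, 333 and 384 TPM, lowest in library 1. The ectoenzyme Nt5e was the lowest at 2.7 ± 1.31 TPM. The windows from 250 bases before to 50 bases after the start of 15 of these genes were matched in RefSeq sequence of build GRCm38.p6 (16 windows). SRF binds the CArG box, a run of 6 A or T bases between CC and GG, and TEAD factors bind GGAATG, whose other strand reads CATTCC. Both strands were searched. A CArG box lay in the windows of 3 of these genes, Myl9, Srf and Vcl, and in 1.63% of all 32851 windows. With 1 of the 6 bases free to be G or C, a form chosen after the Acta2 sequence was seen, Acta2 was added, and 9.98% of all windows matched. GGAATG lay in the windows of 10 of these genes (Acta2, Amotl2, Ankrd1, Axl, Cyr61, Crim1, Flna, Lats2, Tpm1 and Vcl) and in 14.7% of all windows. The TATAAA box lay in 3 of them and in 13.6% of all windows, and the AP-1 motif TGANTCA in none and in 7.81%. These matches describe letters and do not show binding.

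The 250 bases before the start of 6 of these genes are printed 5′ to 3′ on the gene's strand, because Acta2, Ankrd1, Myl9 and Cyr61 are the highest in the list per length and Srf and Vcl hold full CArG boxes. Capitals mark CArG boxes in Myl9, Srf and Vcl, CArG-like runs with 1 other base in Acta2, and GGAATG or CATTCC in Ankrd1 and Cyr61. The windows are chr19:34255374-34255623 (minus strand) for Acta2, chr2:156775214-156775463 (plus) for Myl9, chr17:46556163-46556412 (minus) for Srf, chr14:20929148-20929397 (plus) for Vcl, chr19:36119845-36120094 (minus) for Ankrd1 and chr3:145649986-145650235 (minus) for Cyr61, all in GRCm38.p6.
Acta2: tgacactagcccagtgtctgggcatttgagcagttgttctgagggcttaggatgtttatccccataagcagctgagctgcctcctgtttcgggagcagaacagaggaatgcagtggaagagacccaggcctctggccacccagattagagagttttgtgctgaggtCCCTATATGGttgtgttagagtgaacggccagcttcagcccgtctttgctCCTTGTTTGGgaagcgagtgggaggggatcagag
Myl9: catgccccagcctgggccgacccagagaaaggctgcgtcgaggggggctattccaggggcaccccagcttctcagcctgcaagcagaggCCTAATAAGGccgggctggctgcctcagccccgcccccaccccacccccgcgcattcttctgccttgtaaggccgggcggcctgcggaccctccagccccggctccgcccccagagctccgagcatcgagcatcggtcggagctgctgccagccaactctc
Srf: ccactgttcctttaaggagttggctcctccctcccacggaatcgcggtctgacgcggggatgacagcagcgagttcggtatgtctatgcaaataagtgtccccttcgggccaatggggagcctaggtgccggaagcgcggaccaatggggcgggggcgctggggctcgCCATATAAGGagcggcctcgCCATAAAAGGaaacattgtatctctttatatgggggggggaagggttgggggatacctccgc
Vcl: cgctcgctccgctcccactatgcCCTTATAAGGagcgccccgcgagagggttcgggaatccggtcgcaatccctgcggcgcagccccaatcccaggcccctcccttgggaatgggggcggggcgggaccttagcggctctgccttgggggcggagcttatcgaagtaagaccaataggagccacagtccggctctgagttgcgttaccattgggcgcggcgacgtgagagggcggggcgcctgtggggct
Ankrd1: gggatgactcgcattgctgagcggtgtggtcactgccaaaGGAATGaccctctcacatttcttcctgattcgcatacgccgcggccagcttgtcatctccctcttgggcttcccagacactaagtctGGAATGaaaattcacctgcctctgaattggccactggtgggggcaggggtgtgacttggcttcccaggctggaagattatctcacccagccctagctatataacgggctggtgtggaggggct
Cyr61: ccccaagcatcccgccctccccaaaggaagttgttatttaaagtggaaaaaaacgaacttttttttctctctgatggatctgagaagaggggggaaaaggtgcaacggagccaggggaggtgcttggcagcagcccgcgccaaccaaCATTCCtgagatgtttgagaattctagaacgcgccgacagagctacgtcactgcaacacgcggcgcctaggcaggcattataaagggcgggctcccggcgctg
The capitals begin 84 and 34 bases before the start in Acta2, 161 in Myl9, 82 and 62 in Srf, 227 in Vcl, 210 and 123 in Ankrd1, and 103 in Cyr61.

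The 3 libraries were alike in rank but differed beyond counting error. Among 12760 genes with enough counts, 7712 (60.4%) differed between the libraries by a chi-square test of equal shares with Benjamini-Hochberg adjustment over all genes at 0.05, after scaling by the trimmed mean of M values (TMM). Sequencing reads without molecular identifiers are not independent molecules, so the test covers counting error only. The differences were small for most genes. At a mean of 20 CPM or more the highest library was a median 1.26 times the lowest, and 1010 of 6447 genes (15.7%) reached a ratio of 1.5. In the same genes 75.6% were called by the chi-square test. The common biological coefficient of variation, which is the spread that remains after counting error, was 0.181 by edgeR, and 0.136 without library 1, 0.204 without library 2 and 0.188 without library 3. Library 1 stood apart: it was the highest or the lowest of the 3 in 6072 of the called genes, against 4371 for library 2 and 4981 for library 3. With 1 library left out, 3738 genes were called without library 1, 5998 without library 2 and 5353 without library 3. Across 6447 genes at 20 CPM or more, Pearson's r of log2 CPM was 0.985 between libraries 2 and 3, 0.971 between 1 and 2 and 0.967 between 1 and 3, as a description across genes, which are not independent and share length and base composition.

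Interferon-induced genes differed widely between the libraries. Of 24 genes in that list 19 had enough counts, all 19 were called (background 60.4%), and 11 of 15 at 20 CPM or more reached a ratio of 1.5 (background 15.7%). Library 2 was the highest in 17 of the 19 and library 1 the lowest in 15. Among all 7712 called genes, library 2 was the highest in 1989 and library 1 the lowest in 3087. The ubiquitin-like protein Isg15 was at 211, 631 and 376 TPM, its deconjugating enzyme Usp18 at 19, 85 and 42.3 TPM and the antiviral proteins Ifit1 and Oasl2 at 13.9, 47.7 and 30.3 and 4.66, 27.6 and 22.1 TPM. The order of libraries was counted on CPM after TMM scaling, on which beta 2 microglobulin, B2m, the light chain of class I molecules, was at 259, 432 and 416; its TPM were 722, 1248 and 1262, highest in library 3. The tetherin Bst2 was at 588, 1199 and 958 TPM. H2-K1, a class I heavy chain, was at 344, 371 and 314 TPM and was lowest in library 3. The lncRNA gene n264818 within Parp9 (354, 619 and 464 CPM) and the chemokine Ccl5 (9.17, 24.4 and 12 TPM) were also lowest in library 1 and highest in library 2. The 27 leukocyte markers summed to 156, 143 and 141 CPM, highest in library 1, and 11 of them reached 1 TPM in all libraries. The common leukocyte antigen Ptprc had 3, 9 and 5 counts, and Cd3e had none. Their part in the difference was not tested. Tap1 is listed at 0 (100% of exon bases shared).

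Genes of the mitochondrial genome differed as widely, and other groups in smaller steps. The median log2 deviation of a list's genes from their own mean over the 3 libraries was -0.52, 0.47 and 0.07 for interferon genes and 0.12, 0.36 and -0.54 for the mitochondrial genome, of which 6 of 7 genes reached a ratio of 1.5. It was 0.21, -0.05 and -0.19 for cardiomyocyte markers, where 22 of 24 genes were highest in library 1 and 1 of 19 reached 1.5. These 24 are all markers tested, and 18 of them were called (75%, against 60.4% of all genes tested). Among called genes only, of all kinds, 2985 of 7712 were highest in library 1. Ribosomal proteins stood at 0.03, 0.11 and -0.15 and nuclear respiratory genes at 0.03, 0.08 and -0.14, both lowest in library 3. Collagens stood at -0.01, -0.09 and 0.16, glycoproteins at -0.08, -0.01 and 0.09 and surface proteins at -0.13, -0.01 and 0.14, all highest in library 3. Transcription factors stood at 0.16, -0.10 and 0.01, and 11 of 36 reached 1.5, against 15.7% of all genes at that level. Few genes reached that ratio among annexins, S100 proteins and galectins, where 0 of 20 genes reached 1.5, matrix processing with 2 of 47, and the actin system with 5 of 75. G2 and mitosis genes, at -0.03, 0.06 and -0.01, had 3 of 17, close to the share over all genes.

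**Figure D5:**
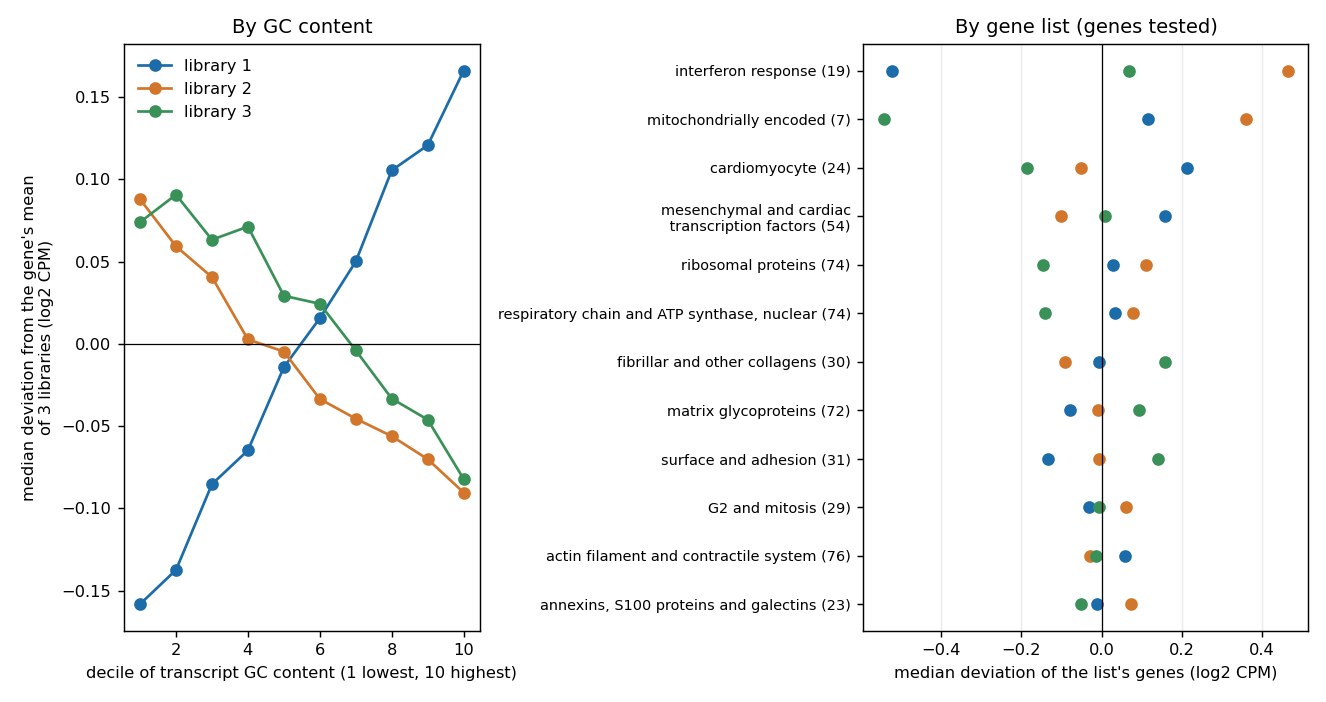
Median log2 deviation of each library from the gene's mean of the 3 libraries, by decile of transcript GC content in coding genes at 20 CPM or more (left) and by gene list with the number of genes tested (right). Library 1 runs from -0.16 in the lowest GC decile to 0.17 in the highest while libraries 2 and 3 run the other way, and interferon and mitochondrial genes lie farthest from 0.

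Base composition moved with these differences, and its part in them was not tested beyond the values given here. In 6265 coding genes at 20 CPM or more the median deviation of library 1 ran from -0.16 in the decile of lowest GC content to 0.17 in the highest. Library 2 ran from 0.09 to -0.09 and library 3 from 0.07 to -0.08. Exon length moved with library 3, from -0.10 in the shortest decile to 0.08 in the longest. After the median of the gene's GC decile was subtracted, an alternative chosen after the data were seen, interferon genes stood at -0.47, 0.43 and 0.05, cardiomyocyte markers at 0.18, -0.01 and -0.18, and transcription factors at 0.11, -0.08 and -0.01. Mitochondrial genes stood at 0.28, 0.27 and -0.62.

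Single genes at the edges show the range. At a mean of 20 CPM or more, Gapdh had the largest ratio of the highest to the lowest library, 5.89, with 7.89, 8.59 and 46.5 CPM after TMM scaling. Its level is uncertain, and the source of its difference between libraries was not tested. Oasl2 (5.74), Usp18 (4.33), Ifit1 (3.33) and Isg15 (2.89) were among the 8 largest ratios, with the lncRNA gene n290220 (4.26, 75% of exon bases shared), Nbeal1 (3.28) and the ribosomal protein Rpl39 (2.98). At the other edge, the glutathione transferase Gstm4 stood at 28.2, 28.2 and 28.1 CPM and the RNA-binding protein Stau1 at 177, 178 and 178 CPM. Slc27a1, Vps24, Akr1b8, Msrb3 (65.1% of exon bases shared) and Arf1 were as close. Among the 5 marker genes given above, Thbs1 had a ratio of 1.67 and the other 4 ratios between 1.23 and 1.27.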

How the data were processed

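Polyadenylated RNA of cultured mouse heart nonmyocytes was measured in 3 libraries. The authors deposited whole-number counts per gene, not normalised, and an annotation in build mm9 (NCBIM37). The submitters' processing notes name Bowtie, TopHat 1.3.0, HTSeq, DESeq and edgeR, without their roles, and the rule for reads in shared bases is not given in the sources used here. Per the labels' protocols the libraries are single-end and do not keep the strand. The 3 cardiomyocyte columns of the table and the small RNA table were not used.

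CPM is a gene's share of the library total, TPM uses the summed exon length of the deposited annotation, and TMM scaling came from edgeR 4.0.16 (R 4.3.3). Genes were tested after filterByExpr (minimum count 10) with a chi-square test over 3 libraries (2 degrees of freedom, scipy 1.17.1). Log2 deviations used a pseudocount of 0.5 CPM. Scripts were tested on simulated data. Plots used matplotlib 3.10.9.

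Named genes are the 20 highest coding genes by TPM, the 15 by CPM, the 8 highest lncRNA genes in all and among those with no shared exon base, the 4 highest and the lowest members of lists, every cell type marker at 10 TPM or more, the 10 highest transcription factors and the 8 largest and smallest ratios; other members were named after their values were seen, and a few genes are not reported here. GC content came from GENCODE M21 transcripts matched by identifier. The lists and members were chosen with earlier results of these data known. Alternatives were scaling by DESeq2 1.42.0, by upper quartiles or by totals, no count filter, the longest transcript as length, and leaving out each library.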

Additional observations from a re-analysis of the deposited data

How the results depend on the processing

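No paired analysis was possible because all 3 libraries belong to one group. The number of genes that differed between libraries, 7712 of 12760 tested, became 11709 of 29042 tested without the count filter. Among genes with no shared exon base it was 3487 of 5771 tested. The number called ranged from 3738 to 5998 with 1 library left out, lowest without library 1. The biological coefficient of variation of 0.181 became 0.266 without the filter and 0.132 from DESeq2's dispersions, and ranged from 0.136 to 0.204 with 1 library left out. Per length, the lncRNA share was 8.98% and not 3.03%. With alternatives chosen after the data were seen, it was 1.07% for loci farther than 1 kb from coding genes and 2.29% without the highest 2 lncRNA genes. The share of the function lists, 31.9%, was 32.2% over genes with under 50% of exon bases shared, 31.7% without mitochondrial genes and 37.9% of TPM. The 100 highest genes held 36.2% of TPM, against 27.2% of counts. Of the 20 highest genes per length, 11 were among the 20 highest in CPM. Among values for single classes, lists and libraries, 121 moved by less than 1 SD (over the 3 libraries, or over a list's genes for its deviation), or less than 1.5 times for counts of genes, and 6 moved further: as shares of TPM, coding genes held 90% (97.1% of counts among genes with under 50% of exon bases shared), glycoproteins 3.12%, collagens 0.883%, ribosomal proteins 4.78% and annexins, S100 proteins and galectins 7.09%. Depth limits the low genes: levels under 1 TPM rest on few counts, and genes with shared exon bases or near-identical copies may be listed too low.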

Other observations

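Some of the highest coding genes lie outside every list, and these were chosen after their values were seen. Cyclin D2, Ccnd2, which promotes passage through G1, was at 2390, 2052 and 2453 TPM, above the highest level in the S phase and mitosis lists, that of Rrm1 (90.9 ± 16.1 TPM). The surface glycoprotein basigin, Bsg, which induces matrix metalloproteinases, was at 2212, 1899 and 1868 TPM. The lysosomal genes Psap and Lamp1 were at 1686, 1502 and 1808 and 1515, 1298 and 1522 TPM. Ifitm2, a relative of the antiviral Ifitm3, was at 2149, 1640.3 and 1564 TPM and highest in library 1, whereas Ifitm3 (3558, 4989 and 4357 TPM) was lowest there. The transcriptional repressor Aes was at 2607, 1844 and 1649 TPM and the G protein subunit Gnai2 at 2147, 1393 and 1484 TPM, both highest in library 1. The cysteine protease inhibitor Cstb was at 1324, 1848 and 1425 TPM and the chloride channel protein Clic1 at 1616, 1397 and 1259.5 TPM.

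The ratio of Thbs1 to its relative Thbs2 was 12.2, 12.6 and 12.9 per length while both genes were lowest in library 1 and highest in library 3. The ratio of Ccl2 to Ccl7 was 2.21, 2.65 and 2.47, and that of S100a4 to S100a6 1.23, 1.15 and 1.12. The share of genes called between libraries grew with the level, from 33.3% at 1 to 5 CPM to 98.3% at 1000 CPM or more, while the median ratio of the highest to the lowest library shrank from 1.76 to 1.2.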
